A study of Mus musculus with 48 samples.

Results

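Muscle fibroblasts were defined here as the cells that the authors annotated as fibroblasts in samples of limb muscle, and 377 of the 12096 annotated cells of the series met this rule. They were 377 of 4565 annotated muscle cells and 377 of 1322 annotated fibroblasts, with 603 further fibroblasts in joint and 324 in skin. Fibroblasts of skeletal muscle build the collagen and proteoglycan matrix around muscle fibres. They include the fibro-adipogenic progenitors, *Pdgfra*- and *Ly6a*-expressing cells that can give rise to matrix-producing cells or to adipocytes and that supply growth factors to muscle stem cells. Such cells are also known to express complement, chemokine, and interferon-response genes in inflamed tissue.

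All mice were male DBA1/J animals aged 8 to 12 weeks, and RNA was measured with Seq-Well, in which single cells share a nanowell with a barcoded bead and each transcript carries a unique molecular identifier (UMI). The 6 CIA mice (collagen-induced arthritis, labelled S) had received 100 µg of bovine collagen II in complete Freund's adjuvant by injection into the skin near the tail, with a booster in incomplete adjuvant on day 20. The 4 healthy mice (labelled H) have no treatment in the labels, while the study's methods say that control mice were injected with phosphate-buffered saline, so collagen, adjuvant, and arthritis cannot be told apart. The summed limb scores of arthritis were 8 in S1, S2, and S3, 4 to 5 in S5, 3 to 4 in S6, and 2 to 3 in S8. Sample names end in 2CIA for H3, S1, S2, and S3 and in CIA for the other mice, and among CIA mice the score and this suffix cannot be told apart. The pieces of tissue had been frozen and thawed, and those of muscle were digested with collagenase II for 120 minutes. By the study's methods, enzymes and durations differed between organs, and their part in the comparisons of organs was not tested. Each mouse is 1 replicate.

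The number of fibroblasts varied more between mice of a group than between the groups. Healthy muscle gave 29 cells in H3, 22 in H4, 14 in H6, and 17 in H7. CIA muscle gave 18 cells in S1, 16 in S2, 2 in S3, 174 in S5, 85 in S6, and 0 in S8. Mouse S5 alone thus held 174 of the 295 CIA cells, whereas healthy mice held 82 cells in all. As a share of annotated muscle cells, fibroblasts were 41.4% in H3, 13.1% in H4, 3.78% in H6, and 3.79% in H7. The corresponding shares were 40.0% in S1, 2.32% in S2, 1.14% in S3, 50.0% in S5, and 4.27% in S6, and 0 of 262 cells in S8 allows a share of up to 1.15%. The mean share was 15.5% ± 17.8 (SD, n = 4) in healthy and 16.3% ± 22.5 (SD, n = 6) in CIA mice, a difference of 0.766 percentage points (two-sided exact permutation test, p = 0.838, the smallest possible being 0.00952). The 4 samples in which red cells had not been lysed, H3, H4, S1, and S5, had the highest shares, and the part of lysis in the share was not tested.

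**Figure D1:**
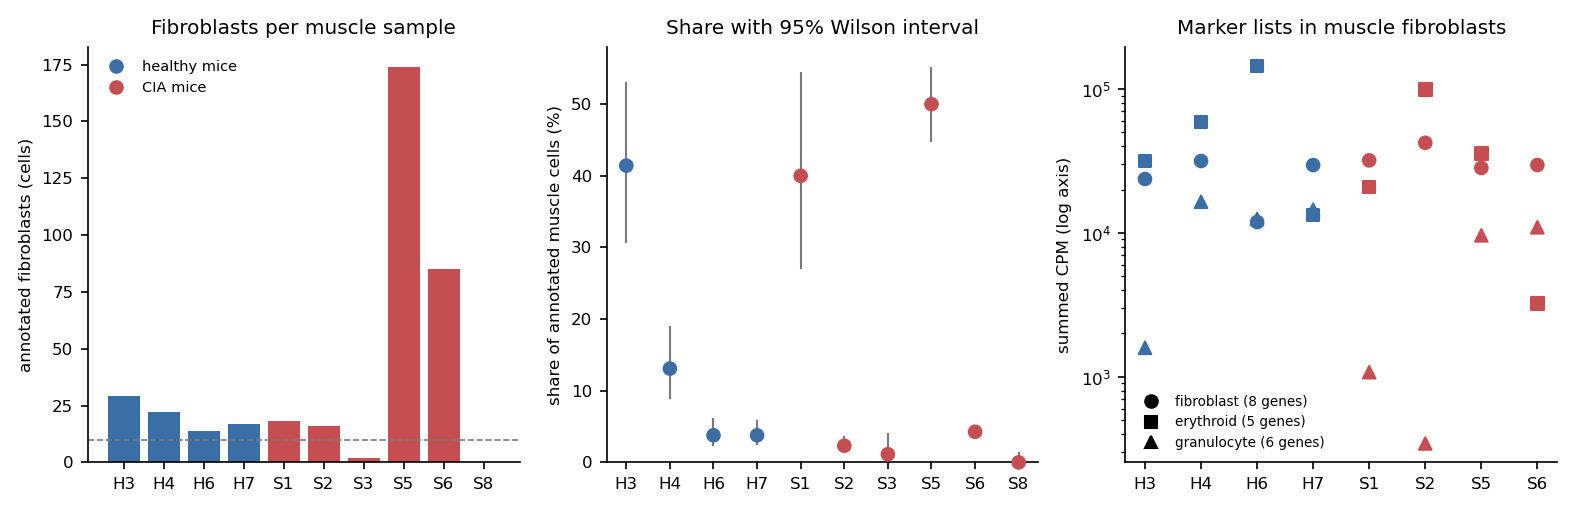
Left, annotated fibroblasts in each muscle sample, with a dashed line at 10 cells, the minimum for a mouse to be tested. Middle, their share of annotated muscle cells with 95% Wilson intervals, which cover counting error only, the share running from 0% in S8 to 50.0% in S5. Right, summed CPM (log axis) of the fibroblast, erythroid, and granulocyte markers in the 8 tested mice, in which the erythroid sum spans 3224 to 144893 CPM.

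The 8 mice with at least 10 such cells, 4 of each group, were compared, which left out S3 and S8 and kept 375 cells. Their summed UMIs ranged from 10173 to 22664 in healthy and from 12088 to 196415 in CIA mice. Levels are given as UMIs per 1000000 UMIs of the sum (CPM), so that 1 UMI was worth 44.1 to 98.3 CPM in healthy sums and 5.09 to 82.7 CPM in CIA sums. Values of a gene are listed in the order H3, H4, H6, and H7 for healthy and S1, S2, S5, and S6 for CIA mice. The median fibroblast had 565 to 738 UMIs in healthy and 605.5 to 973 UMIs in CIA mice. The means of these medians were 630.0 ± 79.8 and 800.5 ± 167 (SD, n = 4 each), which differed by 170.5 UMIs (two-sided exact permutation test, p = 0.143, the smallest possible being 0.0286). The genes detected per cell were 413 ± 58.4 and 504 ± 111 (SD, n = 4 each; exact permutation test, p = 0.171). With each cell thinned to 400 UMIs, which kept all cells, the means were 294 and 295 genes (exact permutation test, p = 0.914). Doublets were not removed here beyond the upper limit on transcripts per cell that the study's methods state, and 7 of the cells had over 3000 UMIs. Across the libraries of the series, 135 cells had a barcode that also occurred in another library, of which 1 was a muscle fibroblast.

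The annotation was made by the authors from expression, and it was checked against 5 label markers, the collagen genes *Col1a2* and *Col3a1*, the actin-severing protein gene *Gsn*, the gelatinase gene *Mmp2*, and *Sparc*, which encodes a collagen-binding matrix protein. At least 1 of the 5 was detected in 91.8% of the fibroblasts and in 31.6% of the 4188 other annotated muscle cells, and at least 2 in 82.0% and 9.62%. All 5 were detected in 69 cells, and 31 cells (8.22%) had none. The share of cells with at least 1 of the 5 was lower in some mice, with 72.4%, 90.9%, 57.1%, and 82.4% in the healthy mice and 100%, 75.0%, 98.3%, and 94.1% in S1, S2, S5, and S6. Beyond the label markers, *Dcn*, the gene of the collagen-binding proteoglycan decorin, had a UMI in 83.8% of fibroblasts and 16.5% of other muscle cells. *Pdgfra*, the receptor gene that defines fibro-adipogenic progenitors, had a UMI in 14.6% against 0.334% and *Clec3b*, a matrix-bound lectin gene of these cells, in 40.6% against 1.29%. The median cell had 738 UMIs among fibroblasts and 623 UMIs among the other cells.

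Genes that are known to mark different states of fibro-adipogenic cells were found in partly overlapping sets of cells. *Pi16*, *Dpp4*, and *Cd55*, which mark interstitial progenitors of fascia and vessel sheaths, were detected in 102 fibroblasts (27.1%, exact 95% interval 22.6 to 31.8%) and in 9.03% of the other muscle cells. *Cxcl14*, *Smoc2*, *Hsd11b1*, and *Col15a1*, which mark a further state of these progenitors, were detected in 141 (37.4%, 32.5 to 42.5%) and in 4.39%. Both groups were detected in 44 cells, the first alone in 58, the second alone in 97, and neither in 178. Tendon and fascia genes (*Tnmd*, *Thbs4*, *Kera*, *Fmod*, *Comp*, and *Chodl*) were detected in 59 fibroblasts (15.6%, 12.1 to 19.7%) and in 1.60% of other muscle cells. *Prg4*, the gene of the joint lubricant lubricin, was detected in 53 fibroblasts (14.1%) and in 0.955% of other cells. At about 738 UMIs per cell, the absence of a UMI does not show that a cell lacked the transcript, and free RNA can give a UMI in a cell that does not express the gene.

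RNA of other cell types was present in the sums, and its range within each group was wider than the difference of the group means for the erythroid and granulocyte markers. The 5 erythroid markers, of which none was at 0, reached 31680, 58999, 144893, and 13335 CPM in healthy and 20847, 99238, 35527, and 3224 CPM in CIA mice. Haemoglobin was detected in 2 of 16 fibroblasts of S2 (12.5%) and in 92.9 to 100% of those of the other tested mice, against 77.0% of the other muscle cells of all mice. The 6 granulocyte markers, led by *S100a8*, reached 1588, 16452, 12484, and 14482 CPM in healthy and 1075, 343, 9612, and 10934 CPM in CIA mice. The 3 mice with the suffix 2CIA thus had 343 to 1588 CPM and the 5 others 9612 to 16452 CPM of granulocyte markers. The 4 B cell markers were between 0 and 491 CPM in healthy and between 0 and 1210 CPM in CIA mice, with the highest value in S6. The 5 satellite cell markers had 309, 229.6, 98.3, and 71.7 CPM in healthy and 0, 0, 15.3, and 10.2 CPM in CIA mice. *Myod1* was at 0 in every sum. The groups did not overlap, but the values of H6 and H7 were 1 UMI each. In S1, 1 UMI was worth 82.7 CPM, so this separation rests on single UMIs. The part of satellite cell RNA in the differences between CIA and healthy mice was not tested. The 7 markers of skeletal muscle fibres stayed at or below 414 CPM, and the 4 adipocyte markers, *Adipoq* among them, were at 0 in every sum. The 8 fibroblast markers summed to 23694, 31604, 11894, and 29610 CPM in healthy and 31933, 42305, 28287, and 29639 CPM in CIA mice, lowest in H6, which also had the highest erythroid sum.

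The question of the main comparison was which genes differ between fibroblasts of CIA and healthy muscle. With edgeR, 173 genes passed the filter on low counts, and 0 (0% of those tested) reached an adjusted p below 0.05 in either direction. At an unadjusted p below 0.05, 10 genes were higher (5.78%) and 1 was lower (0.578%) in CIA mice, 11 in all (6.36%). DESeq2 called 3 of the 173 genes higher (1.73%), which were *Ifi27l2a*, *Mt1*, and *Ifitm3*, and 0 lower. The CPM of the 2 groups did not overlap in 4 genes that were higher (2.31%) and in 5 that were lower (2.89%). On simulated counts with the same means and library sizes, 43 of the 173 genes were changed at once. The fit recovered 95.3% of those given a log2 fold change of 2 but 16.3% of those given 1, so smaller differences were mostly not detectable at this depth. Fewer changed genes were not simulated, so these shares do not give the chance of calling a single changed gene. With the suffix of the sample names as a term, or with red cell lysis as a term, 0 genes were called as well. An edgeR fit on cells with a label marker UMI called 0 of 152 genes, with 6 at an unadjusted p below 0.05.

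Of the 11 genes, 4 belonged to the interferon-response and MHC class I list. *Ifi27l2a*, an interferon-induced gene (chromosome 12, positions 103442167 to 103443680 of GRCm38, minus strand), had 529, 229.6, 98.3, and 215 CPM in healthy mice and 1489, 1099, 804, and 1943 CPM in CIA mice. The groups did not overlap, the log2 fold change being 2.28 ± 0.49 (edgeR adjusted p = 0.137, DESeq2 adjusted p = 0.00194). Within the mice of the suffix CIA alone, the log2 fold change of *Ifi27l2a* was 2.86 (edgeR adjusted p = 0.24), and with the suffix as a term it was 2.28 (edgeR adjusted p = 0.07). *Ifitm3*, which blocks entry of viruses at membranes, had 838, 842, 491, and 1004 CPM in healthy mice and 1489, 1305, 1858, and 1536 CPM in CIA mice, also without overlap (log2 fold change 1.11 ± 0.29, edgeR adjusted p = 0.158, DESeq2 adjusted p = 0.0427).

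The MHC class I heavy chain gene *H2-K1* had 750.1, 536, 1671, and 1219 CPM in healthy mice and 1324, 1511, 1685, and 3641 CPM in CIA mice, with overlapping groups and the highest value in S6 (log2 fold change 1.16 ± 0.38, edgeR adjusted p = 0.347). *B2m*, which encodes the light chain of the same complex, had 1015, 995, 2457, and 1721 CPM in healthy mice and 1489, 2266, 2164, and 4567 CPM in CIA mice (log2 fold change 0.93 ± 0.36, edgeR adjusted p = 0.446). Reads of *H2-K1* and its near-identical relative *H2-D1* may have been split by the counting. *H2-Aa*, an MHC class II gene of antigen-presenting cells, had 132, 153, 1278, and 502 CPM in healthy mice and 165, 1374, 769, and 4079 CPM in CIA mice, again highest in S6, the mouse with the highest B cell marker sum (log2 fold change 1.91 ± 0.82, edgeR adjusted p = 0.655). The part of B cell RNA in these values was not tested.

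Of the 21 genes of the interferon and MHC class I list, 5 were tested, all 5 had a positive log2 fold change (median 1.11, against 0.01 over the 173 genes tested), and 4 had an unadjusted p below 0.05. Members that the filter removed were read from a fit of all 17122 genes with a UMI, in which 517 genes (3.02%) were higher and 144 (0.841%) lower at an unadjusted p below 0.05. In that fit the median log2 fold change of all genes was 1.15, since most genes had few UMIs and the CIA sums were deeper, so levels rather than fold changes are given for genes read from it. The same tilt towards CIA mice bears on the counts from this fit for every list, which are a description and are to be read against these 2 shares. Genes with few UMIs rarely reach this p, so the shares are a low base for lists with better detected members. A count above them does not show that a list was enriched in CIA mice. Of the 16 removed members of the list, 8 were higher at this p and 0 were lower. *Ifi27*, a further interferon-induced gene, had 176, 0, 0, and 215 CPM in healthy mice and 414, 481, 311, and 387 CPM in CIA mice (edgeR unadjusted p = 0.00514). *Irf7*, a transcription factor gene of the interferon response, had no UMI in healthy sums and 165, 68.7, 71.3, and 173 CPM in CIA mice (edgeR unadjusted p = 0.00144).

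**Figure D2:**
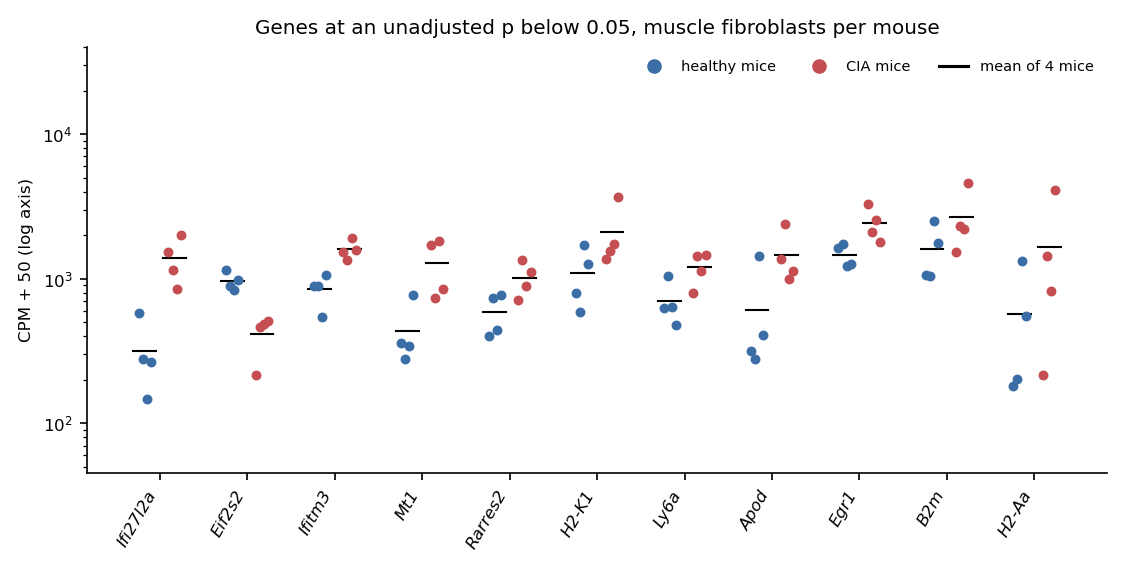
Levels in muscle fibroblasts of the 11 genes with an edgeR unadjusted p below 0.05, in order of p, as CPM + 50 on a log axis. Points are mice (4 healthy, 4 CIA) and bars the mean of 4 mice. *Ifi27l2a*, *Ifitm3*, *Eif2s2*, and *Egr1* show no overlap between the groups.

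Outside the interferon list, *Eif2s2* was the gene that was lower at an unadjusted p below 0.05. *Eif2s2*, which encodes a subunit of the translation initiation factor eIF2, had 1103, 842, 786, and 932 CPM in healthy mice and 165, 412, 433, and 458 CPM in CIA mice, without overlap (log2 fold change -1.13 ± 0.28, edgeR adjusted p = 0.158). *Mt1*, the gene of a zinc-binding metallothionein, had 309, 229.6, 295, and 717 CPM in healthy mice and 1655, 687, 1767, and 793 CPM in CIA mice, with H7 just above S2 (log2 fold change 1.86 ± 0.50, edgeR adjusted p = 0.158, DESeq2 adjusted p = 0.0269). *Rarres2*, which encodes the chemoattractant chemerin, had 353, 689, 393, and 717 CPM in healthy mice and 662, 1305, 840.1, and 1058 CPM in CIA mice (log2 fold change 0.99 ± 0.32, edgeR adjusted p = 0.347).

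Fibro-adipogenic progenitor genes were mostly too low to be tested, 2 of the 20 on the list passing the filter. *Ly6a*, the stem cell antigen used to sort these cells, had 574, 995, 589.8, and 430.2 CPM in healthy mice and 745, 1374, 1079, and 1414 CPM in CIA mice, where H4 overlapped with S1 (log2 fold change 0.97 ± 0.33, edgeR adjusted p = 0.355). *Clec3b* had 706, 1148, 688, and 789 CPM in healthy mice and 1489, 618, 804, and 1312 CPM in CIA mice, with overlapping groups (log2 fold change 0.49 ± 0.39, edgeR adjusted p = 0.755). Of the 18 removed members, 5 were higher and 0 lower at an unadjusted p below 0.05 in the fit of all genes, where 3.02% of all genes were higher and 0.841% lower.

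*Pdgfra* had 132, 153, 0, and 0 CPM in healthy mice and 579, 343, 188, and 203 CPM in CIA mice and did not overlap between the groups (edgeR unadjusted p = 0.0129). *Ly6c1*, a further surface antigen of these progenitors, had 309, 459, 0, and 430.2 CPM in healthy mice and 1158, 481, 972, and 915 CPM in CIA mice, also without overlap (edgeR unadjusted p = 0.00251). The interstitial marker *Pi16* had 221, 153, 197, and 430.2 CPM in healthy mice and 496, 412, 549.9, and 997 CPM in CIA mice, with H7 above S2 (edgeR unadjusted p = 0.00633). *Smoc2* (unadjusted p = 0.0441) and *Cxcl14* (unadjusted p = 0.0103) were the other removed members at this p in edgeR, whereas *Cd34*, the sialomucin gene of progenitors, had 750.1, 689, 295, and 502 CPM in healthy mice and 248, 481, 275, and 569.6 CPM in CIA mice. The *Pdgfra* values rest on few reads, since 1 UMI was worth up to 98.3 CPM in the healthy sums. Cells with at least 1 label marker were 57.1 to 90.9% in healthy and 75.0 to 100% in tested CIA mice. The part of this share in the values of these genes was not tested.

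Adipogenic genes were sparse. *Adipoq* and *Plin1*, which mark mature adipocytes, had no UMI in any tested sum, and *Pparg* and *Cebpa*, the central transcription factor genes of fat cell formation, had 3 UMIs each over the 8 mice. *Apod*, which encodes a lipid-carrying protein, had 265, 229.6, 1376, and 358 CPM in healthy mice and 1324, 2335, 937, and 1078 CPM in CIA mice, with H6 within the CIA range (log2 fold change 1.57 ± 0.58, edgeR adjusted p = 0.446). *Fabp4*, a fatty acid carrier gene that capillary endothelium also expresses, had 176, 1760.0, 786, and 1004 CPM in healthy mice and 165, 68.7, 1680.1, and 468 CPM in CIA mice (log2 fold change -0.20 ± 0.78, edgeR adjusted p = 0.962). These were the 2 of 16 list members tested. In the fit of all genes, 2 of 12 removed members (*Cebpd* and *Apoe*) were higher and 0 lower at an unadjusted p below 0.05 (3.02% and 0.841% of all genes). *Cebpd*, an early transcription factor gene of the adipogenic cascade, was removed by the filter and had 44.1, 76.5, 197, and 71.7 CPM in healthy mice and 910.0, 343, 265, and 203 CPM in CIA mice, without overlap (edgeR unadjusted p = 0.00402).

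Fibrillar collagen genes spanned a wide range within each group. *Col1a1* had 1015, 4897, 688, and 1936 CPM in healthy mice and 2399, 7005, 2810.4, and 3509 CPM in CIA mice (log2 fold change 1.00 ± 0.58, edgeR adjusted p = 0.731). *Col1a2* had 3486, 8800.1, 2261, and 5162 CPM in healthy mice and 4302, 10782, 5529, and 6459 CPM in CIA mice (log2 fold change 0.59 ± 0.46, edgeR adjusted p = 0.755). *Col3a1* had 5736, 5280.1, 1278, and 2438 CPM in healthy mice and 5295, 13392, 4037, and 4984 CPM in CIA mice (log2 fold change 1.03 ± 0.57, edgeR adjusted p = 0.731). The highest value of all 3 genes was in S2 and the lowest in H6, and the groups overlapped in each. These were the 3 of 7 fibrillar collagens tested, 0 were called, and their median log2 fold change was 1.00. None of the 11 other collagens passed the filter, of which *Col14a1*, a fibril-associated collagen gene, had the most UMIs with 221, 229.6, 589.8, and 287 CPM in healthy mice and 910.0, 687, 204, and 285 CPM in CIA mice.

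Among 30 matrix glycoprotein genes, 3 were tested and 0 called. *Sparc* had 2559, 6045, 2457, and 4588 CPM in healthy mice and 3226, 7348, 5122, and 5594 CPM in CIA mice (log2 fold change 0.58 ± 0.37, edgeR adjusted p = 0.731). *Dpt*, the dermatopontin gene of universal fibroblasts, had 3177, 1224, 393, and 1147 CPM in healthy mice and 1324, 687, 896, and 1190.0 CPM in CIA mice (log2 fold change -0.48 ± 0.53, edgeR adjusted p = 0.802). *Mfap5*, a microfibril gene, had 971, 383, 393, and 1362 CPM in healthy mice and 1903, 549, 703, and 926 CPM in CIA mice (log2 fold change 0.49 ± 0.55, edgeR adjusted p = 0.802). The groups overlapped in all 3. Of the 27 removed members, 6 were higher and 0 lower at an unadjusted p below 0.05 in the fit of all genes (3.02% and 0.841% of all genes), among them the elastin gene *Eln*, with 44.1, 0, 0, and 0 CPM in healthy mice and 0, 1854, 148, and 183 CPM in CIA mice, where S2 was far above the others and S1 had no UMI.

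Small leucine-rich proteoglycans, which coat and space collagen fibrils, gave 3 tested genes of 9 and 0 calls, with a median log2 fold change of 0.75. *Dcn* had 5780.1, 9336, 5013, and 13550.3 CPM in healthy mice and 12161, 9752, 9607, and 9693 CPM in CIA mice (log2 fold change 0.52 ± 0.42, edgeR adjusted p = 0.755). *Ogn*, the osteoglycin gene, had 794, 842, 589.8, and 1291 CPM in healthy mice and 2316, 1236, 932, and 895 CPM in CIA mice (log2 fold change 0.75 ± 0.46, edgeR adjusted p = 0.731). *Lum*, the lumican gene, had 882, 1071, 393, and 860.3 CPM in healthy mice and 1489, 2198, 738, and 905 CPM in CIA mice (log2 fold change 0.79 ± 0.47, edgeR adjusted p = 0.731). The filter removed 6 members, of which 1 was higher (*Bgn*) and 2 lower (*Fmod* and *Aspn*) at an unadjusted p below 0.05 in the fit of all genes. Over all genes these shares were 3.02% and 0.841%. *Aspn*, the asporin gene, had 2691, 689, 197, and 2079 CPM in healthy mice and 414, 275, 290.2, and 203 CPM in CIA mice, with H3 and H7 far above the other 6 mice (edgeR unadjusted p = 0.00186 in the fit of all genes).

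**Figure D3:**
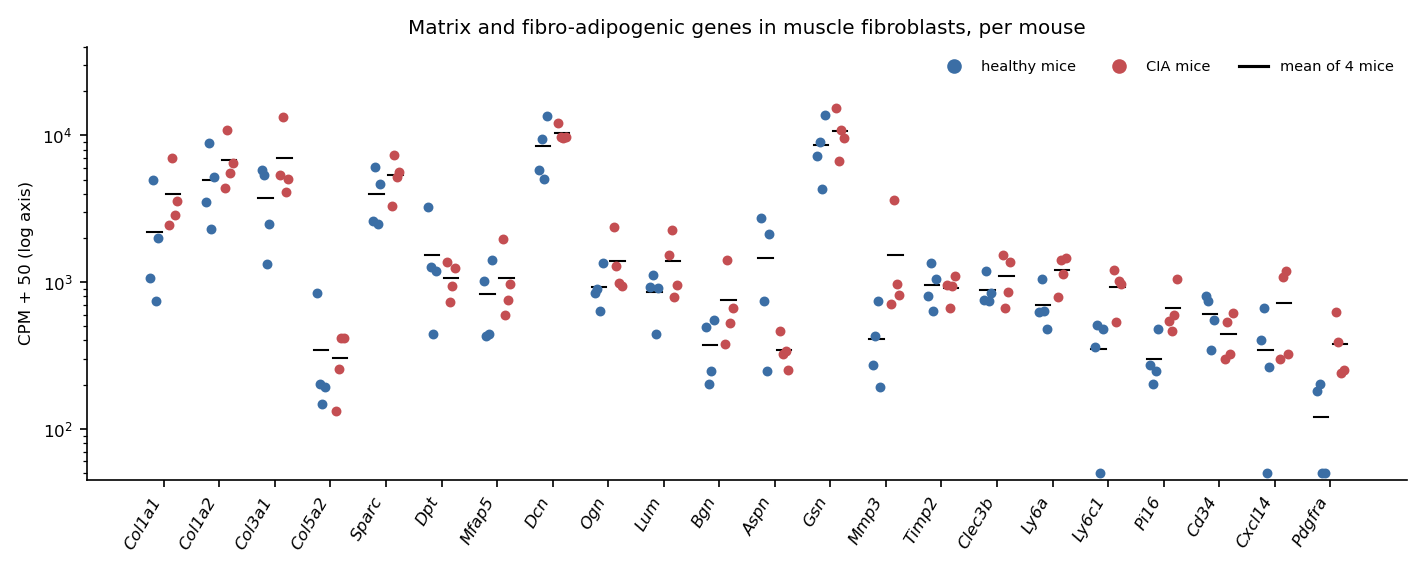
Levels of 22 matrix and fibro-adipogenic genes in muscle fibroblasts, as CPM + 50 on a log axis, with points for the 4 healthy and 4 CIA mice and bars for the mean of 4 mice. The groups overlap in most genes, the exceptions being *Pdgfra* and *Ly6c1*, and 0 of these genes reached an adjusted p below 0.05.

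Genes of matrix processing gave 4 tested members of 27 and 0 calls. *Gsn* is not among them but had the most UMIs of the label markers, with 7148, 8953, 4227, and 13765 CPM in healthy mice and 15387, 6593, 10783, and 9531 CPM in CIA mice (log2 fold change 0.57 ± 0.48, edgeR adjusted p = 0.757). *Timp2*, an inhibitor gene of matrix metalloproteinases, had 750.1, 1301, 589.8, and 1004 CPM in healthy mice and 910.0, 618, 886, and 1058 CPM in CIA mice (log2 fold change 0.09 ± 0.32, edgeR adjusted p = 0.962). *Serpinf1*, the gene of an antiangiogenic serpin, had 706, 1148, 393, and 860.3 CPM in healthy mice and 1241, 893, 1095, and 1169.7 CPM in CIA mice (log2 fold change 0.64 ± 0.35, edgeR adjusted p = 0.731). Neither of these separated the groups. Removed members at an unadjusted p below 0.05 were *Mmp3*, *Mmp13*, *Mmp14*, and *Lox*, all higher in CIA mice, 4 of 23 removed (3.02% of all genes). The stromelysin gene *Mmp3* had 221, 383, 688, and 143 CPM in healthy mice and 662, 3571, 927, and 763 CPM in CIA mice, with S2 far above the others (edgeR unadjusted p = 0.000228). The collagenase gene *Mmp13* was detected in S5 alone, at 453 CPM.

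Growth factor genes included *Igfbp7*, with 618, 1071, 491, and 1362 CPM in healthy mice and 910.0, 2609.7, 1079, and 1099 CPM in CIA mice (log2 fold change 0.80 ± 0.42, edgeR adjusted p = 0.731), and *Igfbp5*, with 750.1, 1530.5, 983, and 1649 CPM in healthy mice and 248, 206, 835, and 1200.2 CPM in CIA mice (log2 fold change -0.68 ± 0.45, edgeR adjusted p = 0.731), both encoding binding proteins of insulin-like growth factors. Of the 21 members, 4 were tested and 0 called. Of 17 removed members, 10 were higher and 0 lower at an unadjusted p below 0.05 in the fit of all genes (3.02% and 0.841% of all genes), among them *Igf1*, which promotes growth of muscle fibres, with 265, 153, 0, and 143 CPM in healthy mice and 662, 893, 234, and 397 CPM in CIA mice (edgeR unadjusted p = 0.00849). *Fst*, the gene of the myostatin antagonist follistatin, had 0, 0, 0, and 215 CPM in healthy mice and 496, 343, 107, and 163 CPM in CIA mice (edgeR unadjusted p = 0.0129). None of 15 genes of the TGF-beta list passed the filter, 3 being higher and 0 lower at an unadjusted p below 0.05 in the fit of all genes. The ligand gene *Tgfb1* had no UMI in healthy and 10 UMIs in CIA mice. The median sum held 13508 UMIs in healthy and 56438 in CIA mice, so these counts do not show a difference in level.

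Complement genes were represented by *Serping1*, which encodes the inhibitor of the first complement component and had 574, 842, 688, and 1434 CPM in healthy mice and 745, 1374, 1135, and 1221 CPM in CIA mice (log2 fold change 0.51 ± 0.30, edgeR adjusted p = 0.731). It was the 1 of 15 members tested, and of 14 removed members 6 were higher and 0 lower at an unadjusted p below 0.05 in the fit of all genes (3.02% and 0.841% of all genes). *C4b*, a component of the classical pathway, had 0, 76.5, 0, and 71.7 CPM in healthy mice and 331, 481, 214, and 275 CPM in CIA mice, without overlap (edgeR unadjusted p = 0.000609). *C3*, the central component, had 221, 229.6, 0, and 574 CPM in healthy mice and 910.0, 618, 728, and 539 CPM in CIA mice, with H7 above S6 (edgeR unadjusted p = 0.00696).

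Of 28 cytokine and chemokine genes, 27 were in the table, 2 were tested, and 0 called. In the fit of all genes, 7 of 25 removed members were higher and 0 lower at an unadjusted p below 0.05 (3.02% and 0.841% of all genes). *Cxcl1*, a neutrophil chemoattractant gene, had 1059, 995, 688, and 1075 CPM in healthy mice and 827, 961, 1109.9, and 885 CPM in CIA mice (log2 fold change 0.12 ± 0.27, edgeR adjusted p = 0.901). *Cxcl12*, a chemokine gene of stromal niches, was removed by the filter and had 0, 229.6, 0, and 0 CPM in healthy mice and 910.0, 618, 423, and 254 CPM in CIA mice, without overlap (edgeR unadjusted p = 7.1e-05). *Ccl2*, a monocyte chemoattractant gene, had 927, 153, 0, and 143 CPM in healthy mice and 82.7, 2953, 50.9, and 244 CPM in CIA mice, with S2 above all others and S5 below most healthy mice (edgeR unadjusted p = 0.0737). *Il6* had 0, 383, 98.3, and 0 CPM in healthy mice and 165, 412, 66.2, and 183 CPM in CIA mice. *Tnf* had no UMI in healthy and 7 UMIs in CIA mice, which shows no difference in level because the CIA sums were deeper.

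Genes that respond to cell dissociation were abundant in both groups. *Fos* had 1809, 2984, 2064, and 1577 CPM in healthy mice and 1737, 2335, 2968, and 2004 CPM in CIA mice (log2 fold change 0.26 ± 0.30, edgeR adjusted p = 0.802). *Egr1*, a transcription factor gene of the same early response, had 1588, 1684, 1179.6, and 1219 CPM in healthy mice and 3226, 2060.3, 2479, and 1749 CPM in CIA mice, without overlap (log2 fold change 0.91 ± 0.35, edgeR adjusted p = 0.446). *Jun* had 1500.2, 1684, 1573, and 1147 CPM in healthy mice and 1985, 1923, 1965, and 1851 CPM in CIA mice, also without overlap (log2 fold change 0.54 ± 0.27, edgeR adjusted p = 0.731). Of 18 immediate early genes, 8 were tested, 1 had an unadjusted p below 0.05, and their median log2 fold change was 0.27. The 3 heat shock genes tested of 11 had a median of -0.14. Of 15 metallothionein, glucocorticoid, and antioxidant genes 5 were tested, with a median of 0.42, and *Mt2* had 838, 1071, 688, and 1506 CPM in healthy mice and 1406, 755, 2011, and 1078 CPM in CIA mice.

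Tendon genes were low and none of 9 passed the filter, as was the case for the 8 genes of synovial lining and cartilage. In the fit of all genes, 4 of 8 removed tendon genes were lower and 0 higher at an unadjusted p below 0.05 (0.841% and 3.02% of all genes). Among 7 removed genes of synovial lining and cartilage, 0 were lower and 0 higher at this p. *Tnmd*, the tenomodulin gene of tendon cells, had 529, 383, 0, and 71.7 CPM in healthy mice and 0, 0, 45.8, and 10.2 CPM in CIA mice (edgeR unadjusted p = 0.00311). *Thbs4*, a thrombospondin gene of tendon and muscle attachment, had 529, 383, 98.3, and 143 CPM in healthy mice and 165, 0, 30.5, and 10.2 CPM in CIA mice (edgeR unadjusted p = 0.00279). In both genes the groups overlapped, and H3 and H4 had the highest values.

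Muscle fibroblasts were next compared with the fibroblasts of joint, in 8 sums of muscle and 6 of joint (3 healthy and 3 CIA mice) with disease as a term. Of 1284 genes tested with edgeR, 18 were higher in muscle (1.4%) and 45 lower (3.5%) at an adjusted p below 0.05. Because muscle and joint of 1 mouse come from the same animal, the mouse was also fitted as a block, which left 15 calls, 1 higher and 14 lower, of which 14 were shared with the fit without the block. Only H3, H4, H7, S1, and S5 had tested sums of both organs, so the block rests on these mice and has less power. With plain library sizes the split was 25 higher and 30 lower, and the median log2 fold change of all genes moved from -0.08 to 0.12. The count was 33 without mouse S1, 31 without S5, and 28 without S6. In healthy mice alone, 0 of 315 genes were called higher and 6 lower in muscle. Sums did not overlap between the organs in 3 of the genes that were higher (0.234%) and in 7 that were lower (0.545%).

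The lower genes included those of synovial lining, cartilage, and bone matrix. *Prg4* (chromosome 1, positions 150449412 to 150466165 of GRCm38, minus strand) had a lowest, median, and highest value of 0, 151, and 717 CPM in muscle and of 1808, 5159.9, and 15449.5 CPM in joint, without overlap (log2 fold change -4.84 ± 0.55, edgeR adjusted p = 3.84e-05, 0.000215 with the mouse as a block). *Col11a1*, a cartilage collagen gene, had 0, 0, and 30.5 CPM in muscle and 92.9, 214, and 1025 CPM in joint, also without overlap (log2 fold change -5.06 ± 0.64, edgeR adjusted p = 0.000113). *Ibsp*, the bone sialoprotein gene, had no UMI in muscle and 654 UMIs in joint, which makes it at least 114-fold lower in muscle, counted against a floor of 3 UMIs over the group.

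*Comp*, which encodes a cartilage and tendon matrix protein, had 0, 30.5, and 430.2 CPM in muscle and 146, 1477, and 3530.1 CPM in joint (log2 fold change -4.23 ± 0.63, edgeR adjusted p = 0.000594). *Timp1*, an inhibitor gene of metalloproteinases, had 0, 74.6, and 275 and 158, 649, and 3482 CPM (log2 fold change -3.50 ± 0.56, edgeR adjusted p = 0.00106). Both were also called with the mouse as a block, as were *Ibsp*, *Col11a1*, *Ctgf*, and *S100a4*. *Fn1* (log2 fold change -1.92), *Col5a2* (-1.63), *Lum* (-1.19), *Bgn* (-1.26), and *Lox* (-1.86) were lower in muscle by edgeR but not with the block, where their adjusted p-values were 0.12, 0.264, 0.0677, 0.072, and 0.12.

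*Ogn* was the matrix gene that was higher in muscle than in joint. It had 589.8, 913, and 2316 CPM (lowest, median, and highest) in muscle and 207, 342, and 434 CPM in joint, and the organs did not overlap (log2 fold change 1.49 ± 0.31, edgeR adjusted p = 0.00927, 0.0745 with the block). *Lpl*, the lipoprotein lipase gene, had 98.3, 466, and 745 CPM in muscle and 87.4, 142, and 207 CPM in joint (log2 fold change 1.53 ± 0.37, edgeR adjusted p = 0.0175, 0.12 with the block). *Ifi27l2a* (1.62 ± 0.33, adjusted p = 0.00927) and *H2-K1* (1.30 ± 0.35, adjusted p = 0.0316) were higher too, again not with the block (0.157 and 0.398). *Cd74* and *H2-Aa*, genes of antigen-presenting cells, were among the 18 as well, and *Cd74* ranged from 0 to 4953 CPM over muscle sums.

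Fibro-adipogenic genes gave no call between muscle and joint. Of the 20 list members 9 were tested, with a median log2 fold change of 0.16 against -0.08 over all genes. *Pdgfra* had 0, 171, and 579 CPM in muscle and 97.9, 116, and 372 CPM in joint (log2 fold change -0.06 ± 0.59, edgeR adjusted p = 0.975), and *Pi16* had 153, 421, and 997 and 117, 392, and 599 CPM (log2 fold change 0.04 ± 0.39, edgeR adjusted p = 0.975). The label markers *Col1a2*, *Col3a1*, *Gsn*, *Mmp2*, and *Sparc* gave 0 calls. Fibrillar collagens as a list had 7 tested, 0 higher, and 2 lower in muscle, with a median of -1.11.

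Against skin, a larger part of the genes tested was called than against joint. The same 8 muscle sums were compared with 9 skin sums (4 healthy and 5 CIA mice), and of 426 genes 77 were higher in muscle (18.1%) and 78 lower (18.3%) at an edgeR adjusted p below 0.05. With the mouse as a block, 59 were higher and 48 lower, and 106 of these 107 calls were among the 155. Sums did not overlap in 10 of the genes that were higher (2.35%) and in 11 that were lower (2.58%). The comparisons with joint and with skin share the muscle sums and are not independent. On simulated counts, 61.3% of log2 changes of 1 were recovered against skin and 9% against joint. The filter also kept different genes, so the shares called do not show which organ is more alike.

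*Ogn* was again higher in muscle (chromosome 13, positions 49608046 to 49624501 of GRCm38, plus strand). In skin it had 0, 24.8, and 133 CPM (lowest, median, and highest), all below the muscle sums (log2 fold change 4.58 ± 0.44, edgeR adjusted p = 4.97e-07). *Igfbp6*, a further binding protein gene, had 549, 915, and 1649 CPM in muscle and 0, 132, and 264 CPM in skin (log2 fold change 3.06 ± 0.32, edgeR adjusted p = 6.52e-07). The progenitor genes *Ly6a* (2.9 ± 0.39, adjusted p = 1.41e-05) and *Clec3b* (2.77 ± 0.39, adjusted p = 1.67e-05) did not overlap between the organs either. Of 5 fibro-adipogenic genes tested, 4 were higher in muscle, namely *Ly6a*, *Clec3b*, *Ly6c1*, and *Cd34*, and 0 lower, with a median of 2.23 against -0.01 over all genes.

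Several matrix genes other than the fibrillar collagens were higher in muscle than in skin. *Mgp*, which inhibits calcification, had 44.1, 426, and 2653 CPM in muscle and 0, 0, and 177 CPM in skin (log2 fold change 4.24 ± 0.77, edgeR adjusted p = 0.000242). *Gsn* had 4227, 9242, and 15387 and 573, 1085, and 5396 CPM (log2 fold change 2.78 ± 0.40, edgeR adjusted p = 1.7e-05). The antioxidant gene *Gpx3* had 197, 893, and 1434 and 0, 26.4, and 293 CPM (log2 fold change 3.12 ± 0.49, edgeR adjusted p = 4.78e-05). Of the matrix glycoproteins 4 of 5 tested were higher (*Mfap5*, *Dpt*, *Sparcl1*, and *Mgp*), of the small leucine-rich proteoglycans 2 of 5 were higher (*Dcn* and *Ogn*), and of the matrix processing genes 6 of 10 were higher and 2 lower. With the block, *Timp3*, *Serpinh1*, and *Ctsk* of these were no longer called (edgeR adjusted p = 0.064, 0.134, and 0.0555). None of 4 fibrillar collagens was called, their median being 0.05, and *Col1a2* had 2261, 5346, and 10782 CPM in muscle and 1899, 4998, and 11837 CPM in skin. *Dcn* was higher in muscle (log2 fold change 1.00 ± 0.33, edgeR adjusted p = 0.0208) but not with the block (adjusted p = 0.0618).

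Of 15 complement genes 2 were tested against skin, and both were higher in muscle. *C3* had 0, 556, and 910.0 CPM in muscle and 0, 98.6, and 370.3 CPM in skin (log2 fold change 2.08 ± 0.50, edgeR adjusted p = 0.00271), and *Serping1* had a log2 fold change of 1.64 ± 0.28 (edgeR adjusted p = 9.64e-05). Of 6 interferon and MHC class I genes tested 5 were higher, *Ifi27l2a* having the largest log2 fold change of 3.43 ± 0.42 (adjusted p = 3.12e-06). With the block, *B2m* and *H2-K1* were no longer called (adjusted p = 0.09 and 0.101).

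Of 8 cytokine and chemokine genes tested 3 were lower in muscle (*Ccl2*, *Ccl7*, and *Cxcl1*) and 0 higher, *Cxcl1* not being called with the block (edgeR adjusted p = 0.0597). *Ccl2* had 0, 148, and 2953 CPM in muscle and 581, 1435, and 8769.7 CPM in skin (log2 fold change -2.21 ± 0.72, edgeR adjusted p = 0.0209), and *Ccl7*, a related monocyte chemoattractant gene, had 0, 265, and 1168 and 464, 1093, and 4731 CPM (log2 fold change -2.13 ± 0.54, edgeR adjusted p = 0.00447). Of the matrix processing genes, *Mmp3* was lower and had 143, 675, and 3571 and 315, 3938, and 12968 CPM (log2 fold change -2.32 ± 0.56, edgeR adjusted p = 0.00271). *Inhba*, which encodes an activin subunit, had 0, 0, and 132 CPM in muscle and 213, 576, and 1279 CPM in skin, without overlap (log2 fold change -4.34 ± 0.62, edgeR adjusted p = 1.67e-05). *Lgals7*, an epithelial galectin gene, had no UMI in muscle and 199 UMIs in skin, so it was at least 85.5-fold lower in muscle. The part of RNA from epithelial cells of skin in this value and in the other differences was not tested.

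RNA of blood cells moved with this comparison as well. *S100a8* had 206, 6419, and 9489 CPM in muscle and 0, 0, and 253 CPM in skin, and *Hbb-bs* had 2624, 27728, and 80704 and 0, 24.7, and 779 CPM. Both were called higher in muscle (adjusted p = 3.12e-06 and 6.52e-07 in edgeR), and their part in the other differences was not tested. Without the haemoglobin, granulocyte marker, and mitochondrial genes, 150 genes were called against skin and 59 against joint.

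**Figure D4:**
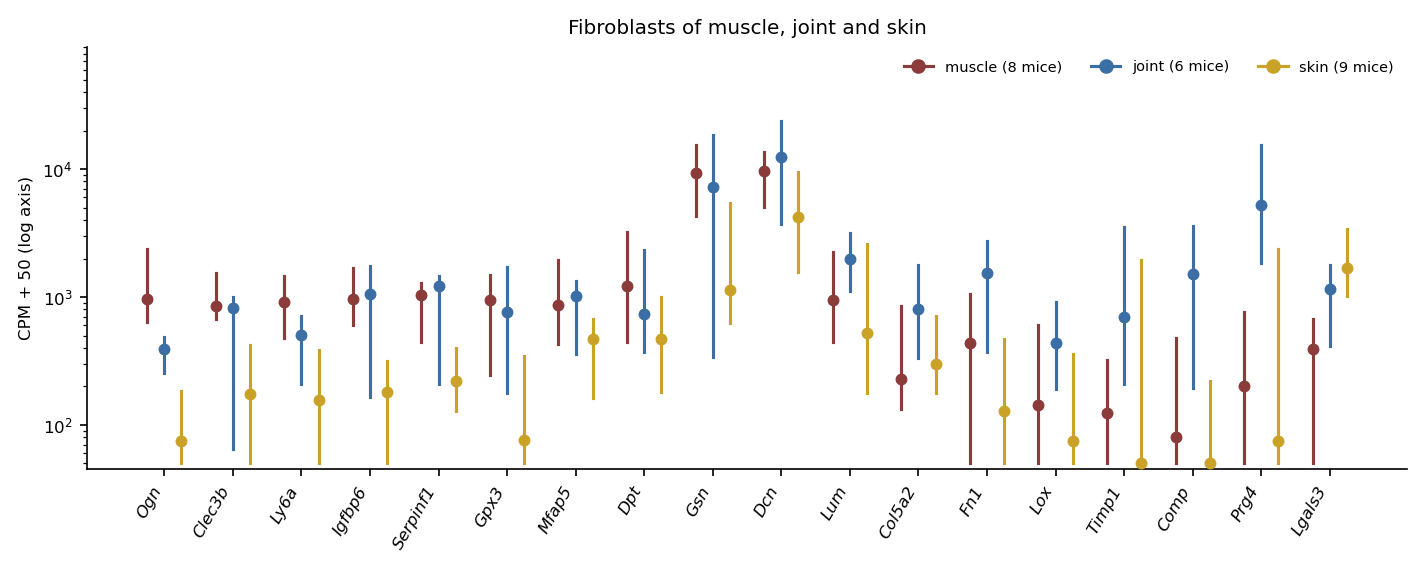
Levels of 18 genes in fibroblasts of muscle (8 mice), joint (6 mice), and skin (9 mice), as CPM + 50 on a log axis, with points at the median and lines from the lowest to the highest mouse. Muscle lies above both other organs in *Ogn* and far below joint in *Prg4*, and progenitor genes such as *Ly6a* and *Clec3b* lie above skin but overlap with joint.

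The last question was whether CIA went with different changes in muscle fibroblasts than in those of joint or skin, which was tested as an interaction of organ and disease. Against joint, 6 of 1284 genes (0.467%) had an adjusted p below 0.05, all with a more positive difference between CIA and healthy mice in muscle, and 0 with a more negative one. At an unadjusted p below 0.05, 69 were more positive (5.37%) and 33 more negative (2.57%). With the mouse as a block the count was 73, of which 58 were more positive and 15 more negative, and it contained all 6. That fit uses the same counts and rests on H3, H4, and H7 among healthy and S1 and S5 among CIA mice. Against skin, 0 of 426 genes were called by edgeR and by DESeq2, with 13 more positive (3.05%) and 11 more negative (2.58%) at an unadjusted p below 0.05.

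*Gsn* (chromosome 2, positions 35256380 to 35307892 of GRCm38, plus strand) had the smallest p of the 6. In joint it had 15827, 18579.6, and 12862 CPM in healthy mice H3, H4, and H7 and 1552, 291, and 1624 CPM in CIA mice S1, S3, and S5, groups far apart, whereas the muscle values given above overlapped. The CIA effect was more positive in muscle by 4.32 ± 0.77 on the log2 scale (edgeR adjusted p = 0.0251). *Gpx3* had 1440.2, 1084, and 1682 CPM in healthy and 336, 175, and 128 CPM in CIA joint, against 794, 612, 197, and 1434 and 993, 618, 1008, and 1037 CPM in muscle (difference of effects 3.19 ± 0.64, edgeR adjusted p = 0.0363). *Apod* had 791, 789.6, and 3804 CPM in healthy and 433, 72.9, and 216 CPM in CIA joint, the opposite order to the means in muscle (difference 4.42 ± 0.95, edgeR adjusted p = 0.0363).

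*C7*, a gene of the complement attack complex, had 317, 217, and 104 and 18.6, 29.1, and 7.09 CPM in healthy and CIA joint and 132, 153, 295, and 717 and 414, 343, 326, and 254 CPM in muscle (difference 3.99 ± 0.86, edgeR adjusted p = 0.0363). *Dpep1*, a membrane dipeptidase gene named here after its values were seen, had 127, 124, and 104 and 9.32, 14.6, and 21.3 CPM in joint and 0, 153, 295, and 71.7 and 331, 206, 311, and 387 CPM in muscle (difference 4.61 ± 0.99, edgeR adjusted p = 0.0363). *Cytl1*, a cartilage-associated cytokine-like gene, had 237, 883, and 5434 CPM in healthy and no UMI in CIA joint, and no UMI in healthy and 8 UMIs in CIA muscle. In all 6 genes the joint groups were separate with the CIA values the lower ones, while in muscle the groups overlapped in *Gsn*, *Gpx3*, *Apod*, *C7*, and *Dpep1*.

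These calls depended on the settings. Past the threshold in the 17 alternatives tried were *Gsn* in 11, *Gpx3* in 7, *Apod* in 6, *Dpep1* in 5, and *C7* in 4, and with plain library sizes in place of TMM factors 0 genes were called by edgeR, 100 having an unadjusted p below 0.05. The count was 0 without H4, S3, or S5, 1 without S6, 2 without H3, and 3 without H6. The tendon genes *Tnmd*, *Thbs4*, and *Kera* had differences of the opposite sign, -4.93 ± 1.32, -4.88 ± 1.23, and -5.59 ± 1.60, with edgeR adjusted p-values of 0.151, 0.115, and 0.154. On simulated counts the interaction with joint recovered 22.5% of effects of a log2 value of 2, so that genes not called here may still differ by that much.

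**Figure D5:**
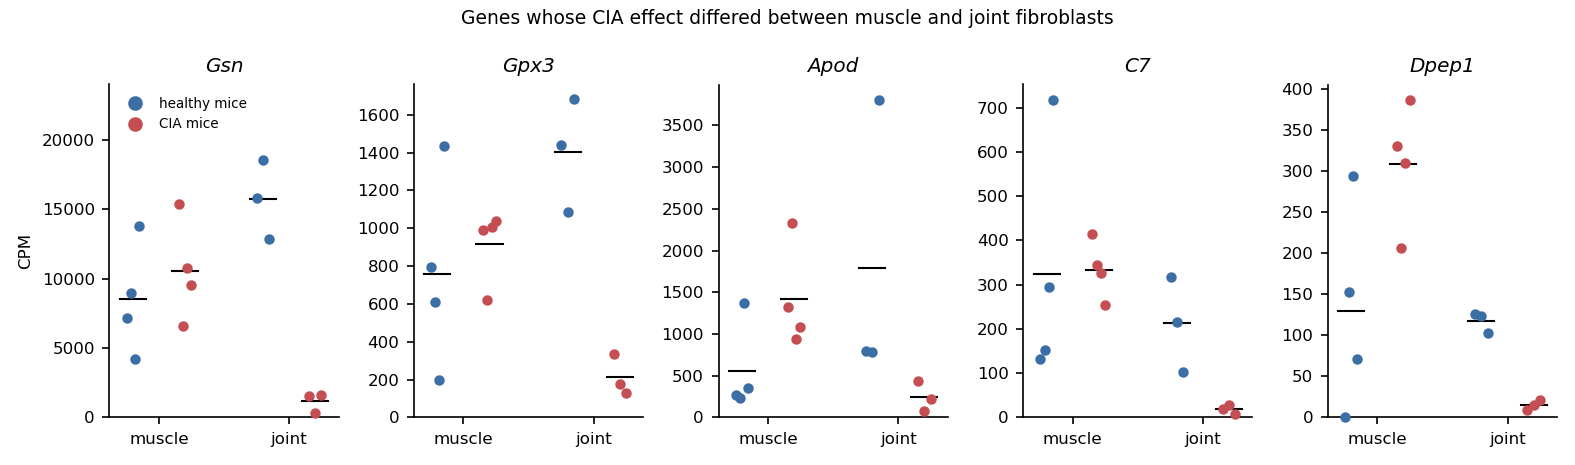
CPM of *Gsn*, *Gpx3*, *Apod*, *C7*, and *Dpep1* (linear axis from 0) in muscle fibroblasts of 4 healthy and 4 CIA mice and in joint fibroblasts of 3 healthy and 3 CIA mice, with bars at the mean. In joint the CIA points lie below the healthy ones, and in muscle the groups overlap.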

How the data were processed

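Single-cell suspensions of 48 samples were measured by Seq-Well, and the authors deposited 1 table of UMI counts (34586 genes by 13240 cells) with their cell annotation. The counts are raw, and the study's methods give bcl2fastq, Picard, Drop-seq tools, and STAR alignment to GRCm38. The 4638 cells of 20 lung and spleen samples were not used here. Cell types are the authors' marker-based labels, and doublets were not removed here.

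The members and gene lists were chosen with earlier results of these data known. UMI counts of annotated fibroblasts were summed per mouse and organ, and sums of at least 10 cells were tested with edgeR 4.0.16 in R 4.3.3 (filterByExpr, TMM factors, glmQLFit and glmQLFTest, Benjamini-Hochberg adjustment, threshold 0.05), with DESeq2 1.42.0 as an alternative. Muscle was fitted alone for CIA against healthy mice, and with joint or skin for the organ effect and its interaction with disease. Errors of log2 fold changes are the size of the change divided by the square root of the F statistic. Shares, UMIs per cell, and genes per cell were compared with exact permutation tests (scipy 1.17.1). The scripts were tested on simulated data. The 6 members of each of 19 lists with the most UMIs and those at an unadjusted p below 0.05 were named, along with the 20 genes of smallest p, the 10 with the most UMIs (*Gsn*, *Dcn*, and *Col1a2* being the fibroblast genes among them), and, for the organs, up to 10 called genes in each direction whose sums did not overlap, and 5 for the interaction. *Il6*, *Tnf*, *Tgfb1*, *Pparg*, *Cebpa*, and *Dpep1* were named after their values were seen. Coordinates are those of GENCODE genes on GRCm38.

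Alternatives were RLE factors, plain library sizes, no filter, at least 5 or 20 cells per sum, each mouse left out, the name suffix or red cell lysis as a term, healthy mice alone, and the mouse as a block. Fits without haemoglobin, granulocyte marker, and mitochondrial genes, or on cells with a label marker UMI, and the thinning to 400 UMIs were chosen after seeing the data. Muscle, joint, and skin sums of 1 number come from the same animal, and the correlations of their deviations from the group means ran from -0.171 to 0.160 for joint and from -0.0536 to 0.135 for skin. Intervals cover counting error only.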

Additional observations from a re-analysis of the deposited data

Results flagged for a closer look

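In groups of 4 mice, 6 of 80 groups checked held 1 mouse far from the other 3, where chance gives about 1 in 20. Among CIA mice these were S1 for *Eif2s2*, lowest at 165 CPM, S6 for *H2-K1*, highest at 3641 CPM, and S2 for both *Igfbp7*, highest at 2609.7 CPM, and *Col3a1*, highest at 13392 CPM. Among healthy mice they were H7 for *Mt1*, highest at 717 CPM, and H6 for *Apod*, highest at 1376 CPM. Mouse S2 gave 16 fibroblasts and H6 gave 14, the fewest of the tested mice.

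The difference between CIA and healthy mice was more positive in muscle than in joint fibroblasts, by the test of the interaction itself, for *Gsn* (4.32 on the log2 scale), *Gpx3* (3.19), *Apod* (4.42), *C7* (3.99), and *Dpep1* (4.61). *Cytl1* had a fitted difference of 14.37, which is no measure of size because healthy muscle and CIA joint held no UMI of it.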

How the results depend on the processing

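For CIA against healthy muscle, 0 genes were called by edgeR under each alternative but the fit without a filter on low counts, which called 2 (*Plac8* higher and *Osbpl7* lower), and DESeq2 called 3. These include leaving out each mouse, which gave 0 throughout. *Ifi27l2a* stayed positive under its 18 alternatives, from 1.79 to 2.99 on the log2 scale, with adjusted p-values from 0.00194 (DESeq2) to 0.447. Against joint, the 63 calls became 99 with DESeq2, 212 without a filter, 11 with at least 20 cells, 15 with the mouse as a block, 6 with healthy mice alone, and 28 to 88 with 1 mouse left out. Against skin, the 155 calls became 375 without a filter, 107 with the block, 47 with healthy mice alone, and 131 to 173 with 1 mouse left out. The 6 interaction calls against joint became 8 with DESeq2, 2 with RLE factors, 0 with plain library sizes, 9 without a filter, 1 with at least 5 cells, 0 with at least 20 cells, 73 with the block, and 0 to 6 with 1 mouse left out. The interaction against skin gave 0 calls under every alternative run. Fewer sums or cells enter several of these fits, and the cause was not tested otherwise. The difference in fibroblast share was -0.0431 points without H4, -3.15 without H6, -3.15 without H7, -3.98 without S1, and -5.98 without S5, and ranged from -5.98 to 9.40 over all mice left out. No paired analysis was possible because healthy and CIA mice are different animals, so only the organ comparisons carry a block, and besides the calls named above the block changed none of the named genes' directions. Depth limits the healthy sums most, where 1 UMI is up to 98.3 CPM.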
